A study of Triticum aestivum with 6 samples.

Results

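Puroindolines are small, cysteine-rich, basic proteins of the wheat endosperm, and PINA and PINB are the genes of puroindoline a and puroindoline b. Both proteins carry a tryptophan-rich domain that binds polar lipids, and they sit at the surface of starch granules, where they set whether a grain is soft or hard. As background, both genes lie at the Hardness locus on the short arm of chromosome 5D, and the A and B subgenomes of bread wheat have lost their copies. Grain is soft when both proteins are functional, and common hard-wheat alleles either delete PINA or change the sequence of PINB.

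The 2 genes were the rows of the deposited count table whose identifier is PINA or PINB, 2 of 102602 gene identifiers. Both passed the filter on low counts, as did 50136 identifiers in all. RNA came from the later-setting, weaker grains of the spike ("inferior grain") of field-grown Triticum aestivum, cultivar Xinong 538. The titles named 2 groups, CK and SPD, with 3 libraries each. Every library, CK included, carried the same treatment entry of exogenous spermidine, a polyamine, and the same stage entry of 8 and 16 days post anthesis, so the labels do not say which group was treated or at which of those days a library was taken. The labels do not tell whether replicates are separate plants, plots or only separate libraries, so p-values measure a spread that may be technical. Series of 3 values below follow the order of replicates 1, 2 and 3.

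Library totals ran from 10561224 to 13088727 counts. Over all genes SPD replicate 3 was separated from the rest, at 140 on the first principal component (35.4% of the variance) against -42.6 to -20.7. All 6 endosperm markers looked for (WAXY, AGP-L, AGP-S, AVNLA, GLU-D1-2B and BMY1) had counts in every library, and their sum ran from 8462 to 11360 CPM (counts per 1000000 counts of a library). Their levels were unequal, with a mean of 3.77 CPM for GLU-D1-2B and 3976 CPM for AVNLA. In SPD replicate 3, which had the highest sum, AVNLA, BMY1 and GLU-D1-2B lay above their CK means, and WAXY, AGP-L and AGP-S below. The 6 markers of the green pericarp (PORA, PSBO, PSBP, PSBR, PETC and WHAB1.6) were also present in every library. They summed to 429 to 552 CPM in CK and 438 to 877 CPM in SPD, highest in SPD replicate 3. In the edgeR fit given below, all 6 changes from CK to SPD were above 0. Their median log2 fold change was 0.51, against 0.0048 over all tested identifiers. None was called, and 3 had an unadjusted p under 0.05 in edgeR, against 3.59% of all tested identifiers. The 6 markers of embryo and general growth (TUBA and TUBB1 to TUBB5) had 3 fitted changes above 0 and 3 below. Of the late-maturation markers, EM was at 0 in every library and PER1 at 97.2 to 152 CPM. The fitted log2 fold change of PER1 was -0.36 (SE 0.14), with an unadjusted p of 0.023 in edgeR, and PER1 was not called. In bulk grain RNA, fewer cells of a type and less RNA per cell cannot be told apart.

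Both puroindoline transcripts were among the most abundant of the filling grain in every library. The CK libraries held 39496, 33450 and 40095 counts of PINA, and the SPD libraries held 33788, 41110 and 37148. Of PINB, the CK libraries held 47108, 40561 and 44699 counts and the SPD libraries 40089, 47395 and 39608. No library came near the limit that a count of 0 allows, which is 3 counts or 0.229 to 0.284 CPM here. A grain with the common deletion of PINA makes no PINA transcript, and reads assigned to PINA were plentiful in all 6 libraries. Reads of related sequences may be shared with PINA, and the allele of PINA was not tested. The table carries no information on the sequence of either transcript, so alleles of PINB were not analysed here.

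As shares of a library, PINA took 0.276% to 0.352% of the counts and PINB 0.328% to 0.377%. The Wilson 95% interval of PINA in CK replicate 1 was 3130 to 3192 CPM around 3161 CPM, and intervals of the other values were similarly narrow. They cover counting error only, since reads without molecular identifiers are not independent molecules. The pair together took 0.693%, 0.669% and 0.648% of the counts in the CK libraries, against 0.604%, 0.682% and 0.727% in the SPD libraries. SPD held both the lowest value, in replicate 1, and the highest, in replicate 3, with all CK values between them.

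Ranked by CPM, which is not divided by transcript length, PINB stood 10th and PINA 12th in mean level among all identifiers. Within single libraries PINB ranked 7, 8 and 9 in the CK libraries and 8, 8 and 13 in the SPD libraries. PINA ranked 12 in all 3 CK libraries and 14, 10 and 15 in SPD. Both had their lowest rank in SPD replicate 3, in which PINA had its highest CPM, 3517, and PINB had 3750 CPM, close to its highest, 3770 CPM in CK replicate 1. Identifiers above PINA took 10.2% of the counts there, against 5.43% to 6.35% in the other libraries, so more counts lay above the puroindolines in that library. Among the 112 tested identifiers with a gene symbol, PINB came after AVNLA alone, an avenin-like storage protein gene with a mean of 3976 CPM. Directly around PINA lay the purothionin gene THI1.1 at 3266 CPM and WZCI at 3055 CPM, both within the spread of PINA over the SPD libraries. The median level of a detected identifier was 3.44 to 4.17 CPM per library.

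**Figure D1:**
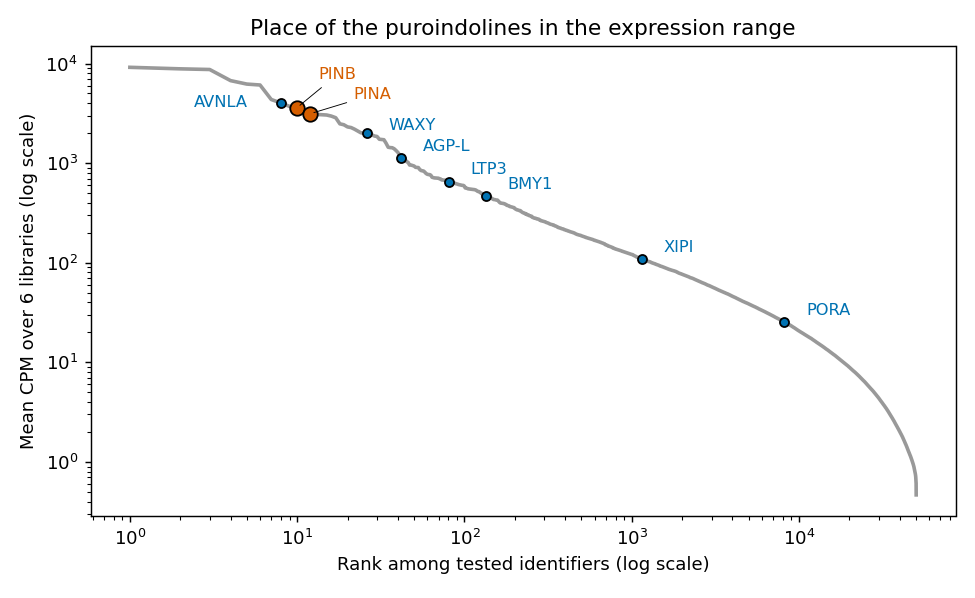
Mean CPM over the 6 libraries, scaled by TMM and not divided by length, against rank for the 50136 tested identifiers, both axes on a log scale. PINB (rank 10) and PINA (rank 12) sit at the upper end of the curve, above the starch synthesis genes WAXY and AGP-L.

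The levels of both genes overlapped between SPD and CK, and neither differed in the test. CPM from here on are scaled by the trimmed mean of M-values (TMM), which corrects library totals for composition, unless stated otherwise. For PINA the CK libraries gave 3148, 3030 and 3093 CPM, and the SPD libraries gave 2737, 3183 and 3631 CPM. The 3 CK values lay close together, while SPD replicate 1 was below and SPD replicates 2 and 3 were above all of them. For PINB the CK libraries gave 3755, 3675 and 3448 CPM, and the SPD libraries gave 3247, 3669 and 3872 CPM. SPD replicate 1 was again the lowest and SPD replicate 3 the highest of the 6 libraries, and SPD replicate 2 fell inside the CK range.

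The fitted log2 change of PINA from CK to SPD was 0.04 (SE 0.11, 3 libraries per group) with an adjusted p of 0.997 in edgeR's quasi-likelihood test, adjusted over 50136 identifiers by Benjamini and Hochberg. The unadjusted 95% interval ran from -0.19 to 0.28, which spans -12.4% to 21.1% of the CK level. For PINB the log2 fold change was -0.01 (SE 0.09), with an adjusted p of 0.998 in the same edgeR fit, and the interval ran from -0.21 to 0.19, or -13.8% to 14.2%. The background of calls at an adjusted p under 0.05 was 0% of identifiers, and at an unadjusted p under 0.05 it was 3.59%. Neither gene was among those, with unadjusted p-values of 0.694 for PINA and 0.899 for PINB in edgeR. Groups without overlap occurred in 9.48% of identifiers and in 0 of the 2 puroindolines.

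**Figure D2:**
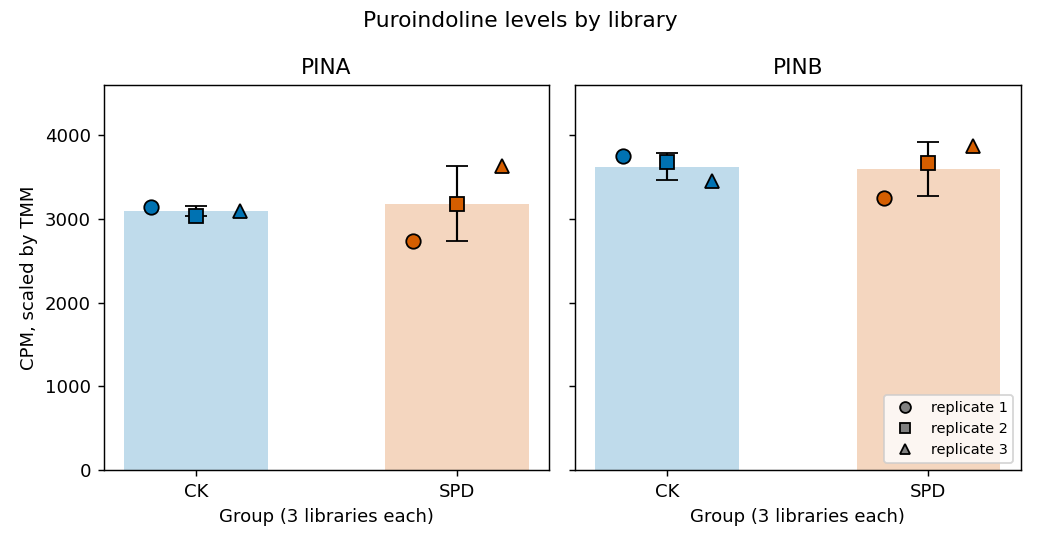
PINA and PINB in CPM scaled by TMM, for each library (points, shape by replicate number) with the group mean (bar) and SD (error bar), n = 3 libraries per group. The CK points of PINA lie between 3030 and 3148 CPM, and the SPD points lie on either side of them, from 2737 to 3631 CPM.

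The sign of either fitted change depended on single libraries. For PINA the log2 fold change was -0.06 with SPD replicate 3 left out and 0.14 with SPD replicate 1 left out. The same omissions gave -0.07 and 0.06 for PINB, and leaving out CK replicate 1 gave 0.01. The summed level of both genes, scaled by library size alone, was 6698 ± 226 CPM in CK and 6707 ± 622 CPM in SPD (mean ± SD, n = 3). A two-sided exact permutation test gave p = 1, where 3 against 3 libraries cannot give less than 0.1. The difference of SPD from CK in that sum was -271 CPM when SPD replicate 3 was left out and 344 CPM when SPD replicate 1 was left out. The difference was also below 0 without CK replicate 3 (-101 CPM) and without SPD replicate 2 (-45.5 CPM).

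The spread between libraries was wider in SPD than in CK for both genes, a difference that was not tested. The coefficient of variation of PINA was 1.90% in CK and 14.0% in SPD, and that of PINB was 4.38% in CK and 8.86% in SPD (n = 3 each). Counting error alone would give 0.515% to 0.517% for PINA and 0.476% to 0.486% for PINB. For comparison, the 46 identifiers that averaged 1000 CPM or more, the puroindolines among them, had a median of 5.07% in CK and 13.5% in SPD. In CK, PINA was the fourth least variable of these 46 and PINB ranked 22. In SPD their ranks were 24 and 11, so a wide SPD spread was shared by most abundant transcripts. Without SPD replicate 3 the coefficients in SPD were 10.7% for PINA and 8.63% for PINB (n = 2), above the median of 5.84%, with ranks of 37 and 32.

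Measured against the mean of the other 5 libraries on the log2 scale, SPD replicate 1 lay at -0.23 for PINA and -0.18 for PINB. Among the 46 abundant identifiers in that library, 13 lay lower than PINA and 17 lower than PINB, and the median size of such a deviation was 0.15. SPD replicate 3 lay at 0.26 for PINA and 0.12 for PINB, where deviations of the 46 ran from -0.92 to 1.17 with a median size of 0.26. There, 23 of the 46 had a larger deviation in size than PINA and 34 had a larger one than PINB. In the CK libraries and SPD replicate 2, the deviations of both genes stayed between -0.08 and 0.07. The sum of the pericarp markers was also highest in SPD replicate 3 and second highest in SPD replicate 1, at 877 and 624 CPM, and its part in these shifts was not tested.

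PINB reads outnumbered PINA reads in every library, by a ratio that moved little. The ratio of PINB to PINA counts was 1.19, 1.21 and 1.11 in the CK libraries, and 1.19, 1.15 and 1.07 in the SPD libraries. Since transcript lengths are not in the files used here, the ratio compares reads and not molecules, and it is read only across libraries. The 95% counting interval reached up to 1.08 in SPD replicate 3 and up to 1.13 in CK replicate 3. The lower bounds of the other 4 libraries lay above these, at 1.14 or higher. These libraries therefore differed by more than these intervals, which treat reads as independent, while the groups overlapped. The mean ratio was 1.17 ± 0.05 in CK and 1.14 ± 0.06 in SPD (SD, n = 3). On the log2 scale the difference of SPD from CK was -0.05 (exact permutation test, two-sided, p = 0.5). Without SPD replicate 3 it was -0.0038, and without CK replicate 3 it was -0.08.

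**Figure D3:**
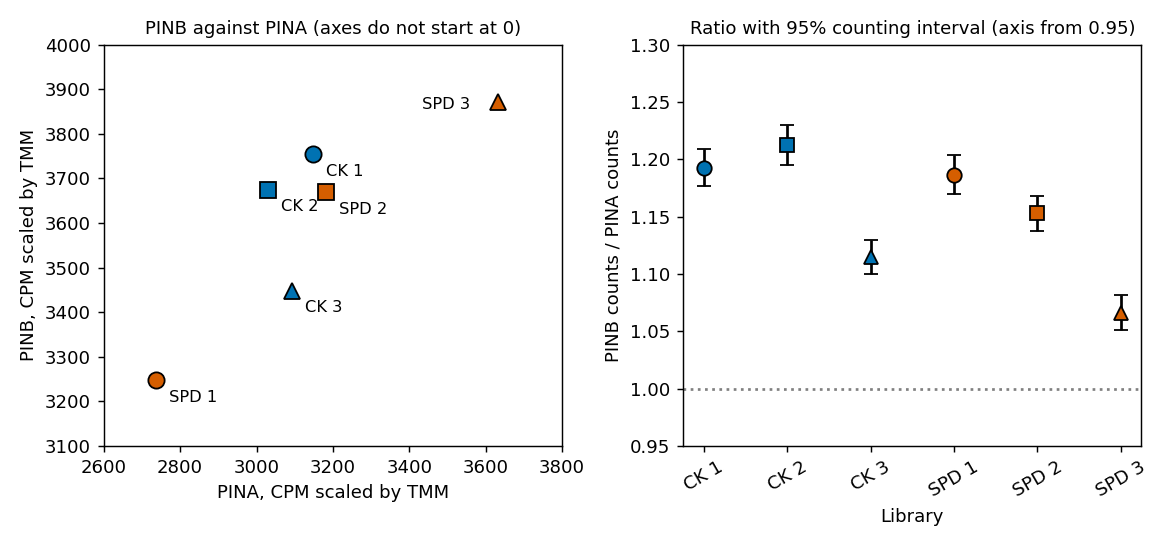
Left, PINB against PINA in CPM scaled by TMM for the 6 libraries, on axes that do not start at 0. Right, the ratio of PINB to PINA counts per library with its 95% Wilson counting interval, on an axis that does not start at 0. The ratio stays above 1 (dotted line) in every library and is lowest in SPD replicate 3, at 1.07.

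The SD of the log2 ratio over the 6 libraries was 0.07, and 0.05 without SPD replicate 3. Among all 1035 pairs of the 46 abundant identifiers, 43 pairs (4.15%) had a smaller SD, and the median was 0.22. Of the 45 pairs that include PINA, 4 were steadier than PINA with PINB, and of the 45 that include PINB, 2 were. Over the 6 libraries the coefficient of variation was 6.25% for PINB and 9.23% for PINA, against a median of 10.2% for the 46. PINB ranked 5 and PINA 16 from the least variable. A steady ratio of the pair was not separated from the spread of each gene. These pairs share genes and libraries, so the shares are a description.

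The correlation of PINA with PINB over libraries was lower with SPD replicates 1 and 3 left out. Pearson's r of log2 CPM was 0.862 over the 6 libraries (exact permutation p = 0.0333, or 0.0667 adjusted over the 2 coefficients). Spearman's rho was 0.714 (exact permutation p = 0.136, adjusted 0.136). Without SPD replicates 1 and 3, the libraries farthest from the median of PINA, r was 0.260 over 4 libraries. Leaving out the extremes of PINA narrows its range, which by itself tends to lower r. That value therefore cannot tell whether the genes co-vary. With SPD replicate 1 alone left out it was 0.692, and with SPD replicate 3 alone left out 0.848. Within CK, PINB was lowest in replicate 3, at 3448 CPM, while PINA was lowest in replicate 2, at 3030 CPM. Ordered by their r with PINA, PINB came at place 976 among the 50135 other identifiers tested.

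Among the 1316 other identifiers averaging 100 CPM or more, the highest r with PINA over the 6 libraries belonged to Traes_7DS_1FF53C667, at 0.989. That transcript had a wider range than PINA, from 119 CPM in SPD replicate 1 to 276 CPM in SPD replicate 3. Of identifiers with a symbol, the highest were the purothionin gene THI1.2 at 0.898, PINB at 0.862 and AVNLA at 0.841. PINB was most like Traes_1AL_28696683F, at an r of 0.980, and among symbols like CBP2 at 0.891, the alpha-amylase inhibitor gene IMA1 at 0.879 and PINA at 0.862. For IMA1 the CK libraries gave 3317, 3192 and 3056 CPM and the SPD libraries 2503, 3127 and 3174 CPM, with the lowest value in SPD replicate 1, as in PINB. The median r of the 1316 identifiers was -0.22 with PINA and -0.15 with PINB. With 6 libraries that share depth and processing, these values describe likeness over these libraries alone.

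Other grain genes gave the setting in which the puroindolines were read. A list of 47 symbols for lipid-binding relatives, thionins, inhibitors, storage proteins, starch enzymes and endosperm transcription factors had 16 entries in the table, all of them tested. At an unadjusted p under 0.05 in edgeR there were 2 of the 16, against 3.59% of all tested identifiers. None of the 16 was called higher or lower, and 8 fitted changes were above 0 and 8 below. Their median log2 fold change was -0.01, against 0.0048 over all tested identifiers. By list, fitted changes above and below 0 numbered 2 and 3 for starch synthesis (median -0.09), 2 and 1 for thionins (median 0.01), 1 and 2 for inhibitors (median -0.12), and 1 and 1 for storage proteins (median 0.01) and for starch breakdown (median 0.06). Groups did not overlap in 1 of the 16, BMY1, a beta-amylase gene, against 9.48% of all tested identifiers. No listed endosperm transcription factor was matched, and of the lipid-binding relatives only LTP3, a lipid transfer protein gene, was.

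Thionins are small membrane-active proteins of the endosperm. Of the 3 thionin genes found, THI1.1 and THI1.2 had CPM close to those of the puroindolines, again not divided by length. TTHV was far lower, at 159 ± 27.1 CPM in CK and 169 ± 63.4 CPM in SPD. THI1.1 had 3325 ± 76.6 CPM in CK and 3253 ± 474 CPM in SPD (mean ± SD, n = 3), and THI1.2 had 2951 ± 115 and 2979 ± 484 CPM. As in PINA, the SD was several times wider in SPD, with the lowest value in replicate 1 and the highest in replicate 3. LTP3 had 617 ± 28.3 CPM in CK and 686 ± 123 CPM in SPD, highest in SPD replicate 3 at 818 CPM. The listed genes with the widest fitted changes were XIPI, a xylanase inhibitor, at -0.69 (SE 0.31), and WZCI at 0.48 (SE 0.20), and neither was called in edgeR (adjusted p = 0.997 for both).

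**Figure D4:**
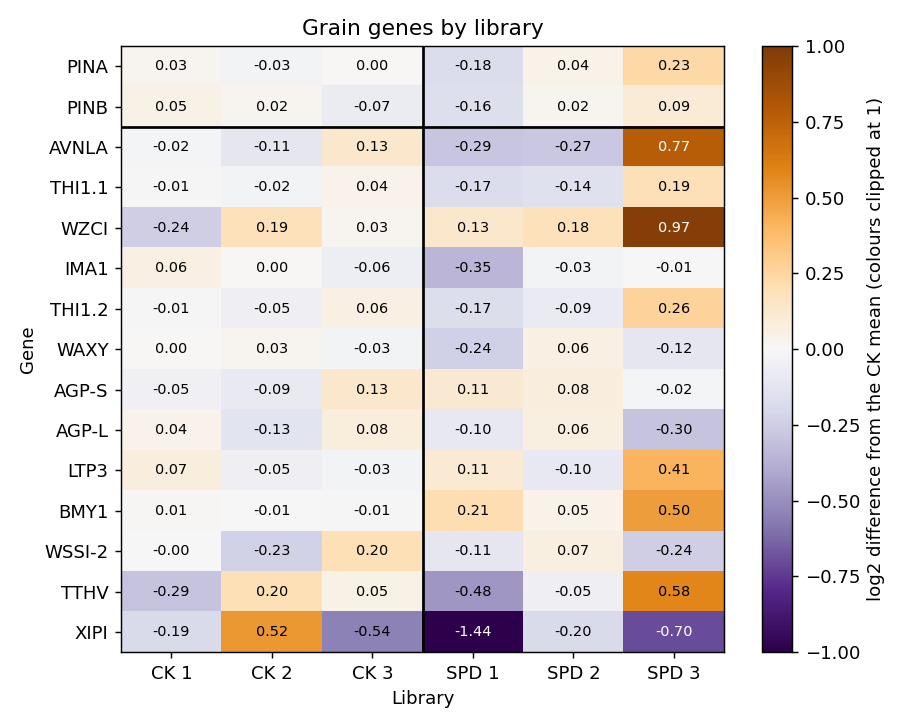
The log2 difference of each library from the CK mean of the same gene. PINA and PINB come first, followed by the listed grain genes averaging 100 CPM or more, ordered by level. PINA reads -0.18 in SPD replicate 1 and 0.23 in SPD replicate 3, against 0.77 for AVNLA and 0.97 for WZCI in SPD replicate 3.

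Set against other endosperm transcripts within a library, which needs no scaling, the puroindoline counts gave different pictures by the gene used as reference. The sum of PINA and PINB was 3.35, 3.20 and 3.25 times the counts of WAXY, the granule-bound starch synthase of amylose, in the CK libraries. In the SPD libraries it was 3.44, 3.20 and 3.95 times, so the highest value was that of SPD replicate 3 and the groups overlapped. Relative to AVNLA the same sum was 1.85, 1.92 and 1.58 in CK and 1.93, 2.19 and 1.16 in SPD, with SPD replicate 3 the lowest. Relative to the 5 starch synthesis genes found (WAXY, WSSI-2, AGA.1, AGP-S and AGP-L) it was 1.31, 1.32 and 1.18 in CK and 1.19, 1.23 and 1.54 in SPD. Relative to the 3 thionin genes found it stayed between 0.983 and 1.15 in all libraries. In SPD replicate 3 the puroindolines therefore stood higher against starch synthesis genes and lower against AVNLA than in any other library, and within the range of the others against the thionins.

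**Figure D5:**
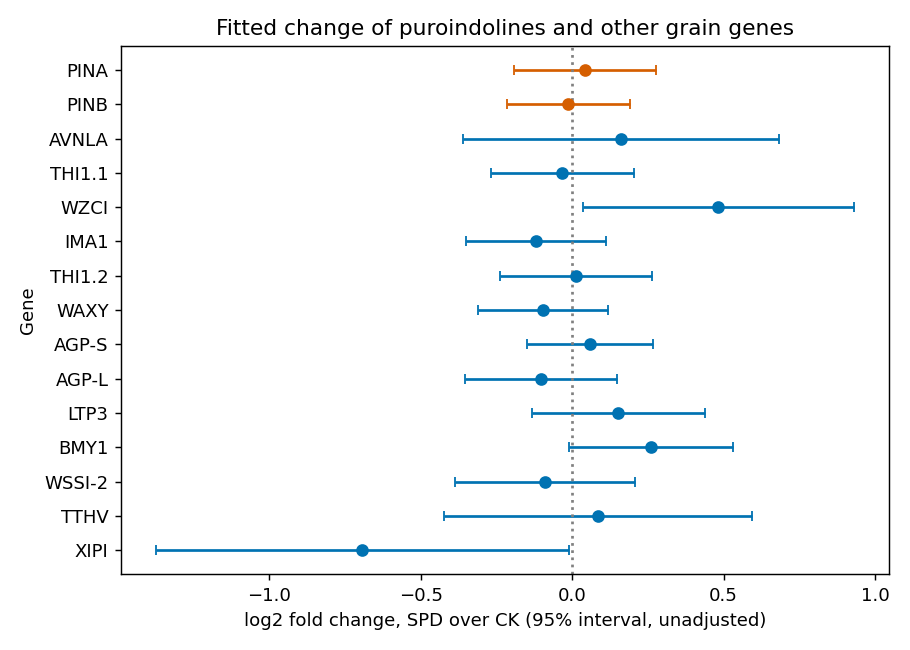
Fitted log2 fold change of SPD over CK with its unadjusted 95% interval from the edgeR fit. PINA and PINB come first, followed by the listed grain genes averaging 100 CPM or more, ordered by level. The intervals of PINA (-0.19 to 0.28) and PINB (-0.21 to 0.19) include 0. They are narrower than that of AVNLA (-0.36 to 0.68) and similar in width to those of WAXY (-0.31 to 0.12) and AGP-S (-0.15 to 0.27).

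The table held 1187 identifiers of chromosome arm 5DS besides the puroindolines, which are entered by symbol. The sum of PINA and PINB amounted to 67.8%, 66.3% and 63.4% of the summed counts of those identifiers in the CK libraries and to 58.0%, 64.7% and 75.6% in the SPD libraries. PINA by itself had 4.39 to 8.27 times the counts of the most abundant of them, without division by length.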

How the data were processed

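The authors deposited raw counts per gene identifier, 1 column per library, as whole numbers without normalisation. The submitters' processing notes name HISAT2, a spliced aligner. Its version, the counting program, the genome build, the annotation and the strand setting are not given in the sources used. Reads of related sequences, such as puroindoline b-like copies or grain softness protein genes, may be shared with PINA or PINB, and antisense reads could not be told apart. TRIzol was used to extract total RNA, per the labels' protocols.

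The sample titles gave groups and replicate numbers. The members, gene lists and tests were chosen with earlier results of these data known. The analysis of counts used edgeR 4.0.16 in R 4.3.3: filterByExpr (default minimum count 10, minimum total 15), TMM, the quasi-likelihood test without covariates, two-sided, and Benjamini-Hochberg adjustment at 0.05. The biological coefficient of variation was 26.5%. Standard errors and intervals came from this fit. Ratios, sums and correlations were computed in Python 3.11.15 with scipy 1.17.1 and exact permutation tests. Counts of all pairs of libraries differed beyond sampling noise (chi-square over degrees of freedom between 4.12 and 16.4), so none was treated as a copy.

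Genes named for likeness had the highest Pearson r, the first 3 with a symbol and the first without one for each member, and a mean of at least 100 CPM. The table of IWGSC CS RefSeq v2.1 used here matched 0 of the 2 members, so coordinates, lengths and sequences are not given. Alternatives were DESeq2 1.42.0 (size factors and Wald test), upper quartile scaling, library size alone, TMM without the 100 most abundant identifiers, no filter, a filter of 1 CPM in 3 libraries, limma-voom (limma 3.58.1), the replicate number as a block and leaving out each library.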

Additional observations from a re-analysis of the deposited data

How the results depend on the processing

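Across scalings, filters and tests with all 6 libraries, the log2 fold change ran from 0.03 to 0.05 for PINA and from -0.02 to -0.0042 for PINB, and neither was called. Leaving out single libraries gave values between -0.062 and 0.14 for PINA and between -0.068 and 0.056 for PINB. The summed CPM of both genes then differed by -271 to 344 CPM, and the log2 ratio of PINB to PINA by -0.08 to -0.0038. The correlation of PINA with PINB was 0.791 with library size alone (exact permutation p = 0.0556), 0.260 without SPD replicates 1 and 3, and 0.692 to 0.909 with 1 library left out. The count of called identifiers was 0 (1800 at an unadjusted p under 0.05) in edgeR, 0 to 1 with 1 library left out and 3 in the Wald test of DESeq2 (1895 unadjusted). The 1 was Traes_7BL_05860C94A, without CK replicate 3, and the 3 were Traes_7BL_992E1F443, Traes_1AL_F4F1F73DF and Traes_7DL_FB75EA9C3. The cause of these differences was not tested.

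Deviations from the group means were not shared by libraries of one number (r = 0.016, -0.058 and -0.029). With the number as a block the log2 fold change was 0.03 for PINA and -0.01 for PINB, 0 identifiers were called and 1445 lay under an unadjusted 0.05. With that block the log2 ratio differed by -0.05 (exact sign-flip permutation p = 0.25, the smallest that 3 pairs allow) and the sum by 8.96 CPM (p = 1). The ratio per coding base was not run, as no lengths were used. Counting error was small beside the spread between libraries for both genes, at 0.516% against a coefficient of variation of 9.23% for PINA and 0.481% against 6.25% for PINB over the 6 libraries.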
